A study of Mus musculus with 20 samples.

Results

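Tuft cell genes were followed here as a set of 8 genes: Pou2f3, Gfi1b, Trpm5, Sh2d6, Dclk1, Avil, Alox5ap and Ptgs1. They were chosen by name: every probe that the array annotation assigns to one of these symbols was taken, which gave 18 probes for 8 of 25112 named genes. The symbol of the 2 Sh2d6 probes appears in the array files of slides 1 and 2 alone, and on slide 3 the probes were followed by their identifier and sequence. Expression was measured on 1-colour Agilent mouse arrays in pieces of whole intestinal tissue from C57BL6/j mice, 1 array per sample, in 2 experiments. In the first, 6 Cre control arrays came from VillinCreER/0 mice with normal Braf and 6 BRAFV600E arrays from VillinCreER/0/BrafV600E-LSL/+ mice. Both groups were 8 to 12 weeks old and received tamoxifen on 3 consecutive days, with tissue taken 3 days after the last dose. In the second, 4 MEKi arrays came from mice given the MEK inhibitor PD184352 for 3 days and 4 Vehicle arrays from mice given its carrier alone. All of these mice received tamoxifen on 2 days before the inhibitor or carrier. Their genotype is not in the sample labels. The figure legends of the study describe them as Braf-mutant mice, so the second experiment has no arm without the mutant allele. The Villin promoter drives the recombinase in the gut epithelium, whereas the RNA also held muscle, nerve, connective tissue and blood cells.

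Tuft cells are rare chemosensory cells of the gut epithelium with a brush of long, stiff microvilli. They sense luminal metabolites through a taste-type cascade that ends in the cation channel Trpm5, and they release interleukin 25, acetylcholine and lipid mediators that act on type 2 immune cells, nerves and neighbouring epithelium. Pou2f3 is the transcription factor without which tuft cells are not formed, and Gfi1b is a repressor found in tuft cells and in blood cell precursors. Dclk1 is a kinase that serves as the usual tuft cell marker, Avil bundles actin, and Sh2d6 is an adaptor protein. Alox5ap and Ptgs1 act in the synthesis of leukotrienes and prostaglandins. Several of the genes are also used by other cells of the gut wall: Dclk1 and Avil by neurons, Gfi1b by megakaryocytes and erythroid cells, and Alox5ap and Ptgs1 by mast cells and macrophages.

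Levels are given as log2 of the processed intensity minus the 75th percentile of that array, so that 0 is the 75th percentile of the array, and levels of different probes were not set against each other. Each gene was represented by its brightest probe. For 7 of the 8 genes this probe was well above background on every array. For Dclk1 it was so on every array except 1 of the 4 Vehicle arrays. A gene was called when the limma test, with Benjamini-Hochberg adjustment over all genes tested, gave an adjusted p under 0.05. The 3 Dclk1 probes with a measurable signal and the probes of the 3 genes called in BRAFV600E are shown by their first 30 bases (mouse build mm9 coordinates of the whole 60-base probe, or of the stretch the array file lists for it). They are shown because the Dclk1 probes gave unlike results and because the other 3 carry the calls. Whether each lies in an exon, intron or untranslated region was not analysed here.

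Dclk1, probe at chr3:55275120-55275179, plus strand: tcgtttcctcggaaaatgctgtaccttgtg
Dclk1, probe at chr3:55342815-55342874, plus strand: tttcccccctaatccttcagtttaagctca
Dclk1, probe at chr3:55266925-55266984, plus strand: aatggaacccctggtagtcagctctctact
Gfi1b, probe at chr2:28464982-28465041, minus strand: agccatgatagtagaagcctgctcctatca
Trpm5, probe at chr7:150257434-150257456, minus strand: tatgacggatacactggctccaggaggcac
Ptgs1, probe at chr2:36107644-36107703, plus strand: gagccacacttagactctttccaaagatgt

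The arrays differed in ways that touch these results. Every Cre control array was on slide 1, together with BRAFV600E replicates 1 and 2 alone, while the other 4 BRAFV600E replicates shared slide 2. The second experiment was on slide 3, with MEKi and Vehicle in different rows. Spike-in transcripts, which check the labelling, fell below the accepted slope on 3 Cre control arrays (replicates 2, 3 and 5). On slide 2 their slope was 0. Y-linked transcripts, which mark male mice, were low on 3 Cre control, 2 BRAFV600E, 2 Vehicle and 0 MEKi arrays. Between 60.8% and 76.8% of spots per array were well above background. The number of arrays limits the precision, and p-values measure the spread between these samples.

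The first comparison asked whether 3 days of mutant Braf altered the genes. In BRAFV600E, 7 of the 8 genes had a lower mean than in Cre control and 3 were called lower: the repressor Gfi1b, the channel Trpm5 and the cyclooxygenase Ptgs1. The differences of these 3 lay between −0.80 and −0.56 on the log2 scale, which is 1.74-fold to 1.47-fold lower. Of all 19076 genes tested, 6.53% were called lower and 6.39% higher. The median difference of the 8 genes was −0.59, beside a median of −0.02 over all genes tested. Without any scaling between arrays the median of all genes was 0.79, and that of the 8 genes turned to 0.22, which is −0.57 relative to all genes. All directions given here are relative to the 75th percentile of the array. In whole tissue, fewer tuft cells and less of these transcripts per tuft cell cannot be told apart.

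**Figure D1:**
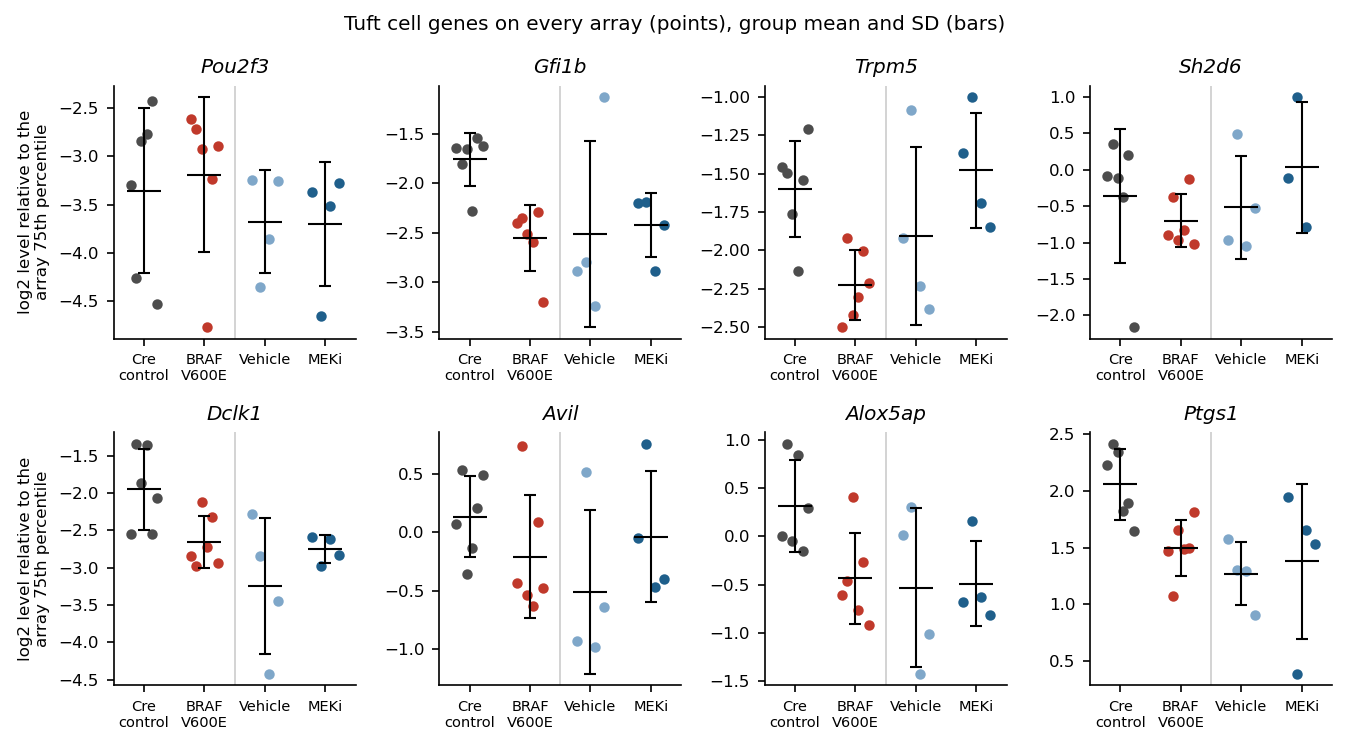
Level of each of the 8 tuft cell genes (vertical axis, log2 intensity relative to the 75th percentile of the array) in the 4 groups (horizontal axis). Each point is 1 array and the bars give the mean and SD of the group (n = 6, 6, 4 and 4, with 1 value missing for Sh2d6 in MEKi). The vertical line parts the 2 experiments. All 6 BRAFV600E points for Gfi1b lie below the 6 Cre control points, and the Pou2f3 points of all groups overlap.

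Gfi1b showed the clearest separation of the 8, but it has only 1 probe on the array, so no second probe could be read. The level of Gfi1b ran from −2.28 to −1.55 with a median of −1.65 in Cre control, and from −3.20 to −2.29 with a median of −2.46 in BRAFV600E. All 6 BRAFV600E arrays lay below every Cre control array, although BRAFV600E replicate 5 at −2.29 and Cre control replicate 4 at −2.28 nearly met. The group means differed by −0.80 (SE 0.18, 95% interval −1.18 to −0.41, limma adjusted p = 0.0140). Groups failed to overlap in this direction for 3.26% of all genes tested, and Gfi1b was the only one of the 8 for which they did so.

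Trpm5, the calcium-activated channel at the end of the taste-type cascade, had levels between −2.13 and −1.21 (median −1.52) in Cre control and between −2.50 and −1.92 (median −2.26) in BRAFV600E. Only Cre control replicate 4 reached into the BRAFV600E range, and 4 of the 6 BRAFV600E arrays lay below every Cre control array. The difference was −0.62 (SE 0.17, 95% interval −0.98 to −0.27, limma adjusted p = 0.0292). The other Trpm5 probe was well above background on 2 arrays of each of these groups and was not tested. The adaptor Sh2d6 had a median of −0.10 in Cre control, with 5 arrays between −0.38 and 0.36 and replicate 6 at −2.16, and ran from −1.02 to −0.13 with a median of −0.86 in BRAFV600E. Its difference of −0.34 was not called (SE 0.37, 95% interval −1.14 to 0.46, limma adjusted p = 0.579). Without Cre control replicate 6 it was −0.70 (adjusted p = 0.0469), so that 1 array decided this value. The other Sh2d6 probe differed by −0.55 (adjusted p = 0.307 among all named probes).

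The eicosanoid genes both had lower means. Ptgs1, the constitutive cyclooxygenase, ran from 1.65 to 2.41 (median 2.06) in Cre control and from 1.07 to 1.81 (median 1.49) in BRAFV600E. The ranges overlapped, with 4 BRAFV600E arrays below every Cre control array, and the difference of −0.56 was called (SE 0.17, 95% interval −0.93 to −0.19, limma adjusted p = 0.0469). Alox5ap, which presents arachidonic acid to 5-lipoxygenase, ran from −0.15 to 0.96 (median 0.15) in Cre control and from −0.92 to 0.41 (median −0.54) in BRAFV600E. BRAFV600E replicate 3 was the single array of that group within the Cre control range. The difference of −0.75 missed the threshold (SE 0.26, 95% interval −1.32 to −0.19, limma adjusted p = 0.0727). A second Alox5ap probe, which followed the first closely over the 20 arrays after group means were removed (r = 0.98), differed by −0.93 with an adjusted p of 0.0473 when every named probe was tested. In that test, 3 of the 15 measurable probes of the 8 genes were called lower, those of Gfi1b and Trpm5 and this one of Alox5ap, against 4.84% of all probes tested. The Ptgs1 probe was not called there (−0.56, adjusted p = 0.0558), and a second Ptgs1 probe differed by −0.48 (SE 0.36, adjusted p = 0.399).

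Dclk1 and Avil were not called. The brightest Dclk1 probe ran from −2.55 to −1.34 (median −1.96) in Cre control and from −2.97 to −2.12 (median −2.79) in BRAFV600E, with 4 BRAFV600E arrays below every Cre control array. Its difference was −0.70 (SE 0.25, 95% interval −1.24 to −0.16, limma adjusted p = 0.0802). The Dclk1 probes did not give 1 answer. The probe near chr3:55342815 differed by −0.45 (SE 0.16, adjusted p = 0.0831), whereas the one near chr3:55266925 differed by 0.17 (SE 0.34, adjusted p = 0.784). The Dclk1 probe that starts at 55320812 was above background on 1 BRAFV600E array and no Cre control array, and the probe that starts at 55325921 was above background on no array. Avil ran from −0.36 to 0.54 (median 0.14) in Cre control and from −0.63 to 0.75 (median −0.45) in BRAFV600E. BRAFV600E replicate 2 was the highest of all 12 arrays, and the difference was −0.34 (SE 0.25, 95% interval −0.88 to 0.19, limma adjusted p = 0.375). A dimmer Avil probe differed by 0.02.

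Pou2f3, the factor on which tuft cell formation depends, was the 1 gene of the 8 whose mean was higher. It ran from −4.53 to −2.43 (median −3.07) in Cre control and from −4.77 to −2.61 (median −2.91) in BRAFV600E. The ranges nearly coincided. The difference was 0.16 (SE 0.43, 95% interval −0.78 to 1.1, limma adjusted p = 0.841), an interval wide enough to hold the differences of all 7 other genes except that of Gfi1b. The other Pou2f3 probe, which tracked the first less closely (r = 0.68), differed by −0.41 (SE 0.26, adjusted p = 0.318), with all 6 BRAFV600E arrays below the Cre control mean.

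Slide 1 alone, with 6 Cre control and 2 BRAFV600E arrays, gave differences of −0.62 for Gfi1b (adjusted p = 0.157), −0.61 for Trpm5 (0.234) and −0.79 for Ptgs1 (0.128). It gave −0.96 for Dclk1 (0.182) and −0.86 for Alox5ap (0.185). It gave −0.27 for Sh2d6, 0.02 for Avil and 0.69 for Pou2f3, so that 6 of the 8 genes had a lower mean there against 7 over both slides. None of the 8 was called there, where 2.79% of all genes tested were called lower and 1.04% higher. None was called with slide as a block either, where 5.61% of all genes were called lower and 2.62% higher. Without the 3 Cre control arrays whose spike-in slope was out of range, the differences were −0.71 for Gfi1b, −0.63 for Trpm5 and −0.40 for Ptgs1, and again 0 genes of the 8 were called. In that setting 1.21% of all genes were called lower and 1.13% higher. It kept the 4 BRAFV600E arrays of slide 2, where the slope was 0. The setting with in-range arrays alone is given further below. The median of the 8 genes was −0.61 within slide 1 and −0.51 without those 3 Cre control arrays. Leaving out single arrays kept Gfi1b called in 12 of 12 cases, Trpm5 in 5 and Ptgs1 in 3, with the highest adjusted p at 0.0334, 0.0610 and 0.101.

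**Figure D2:**
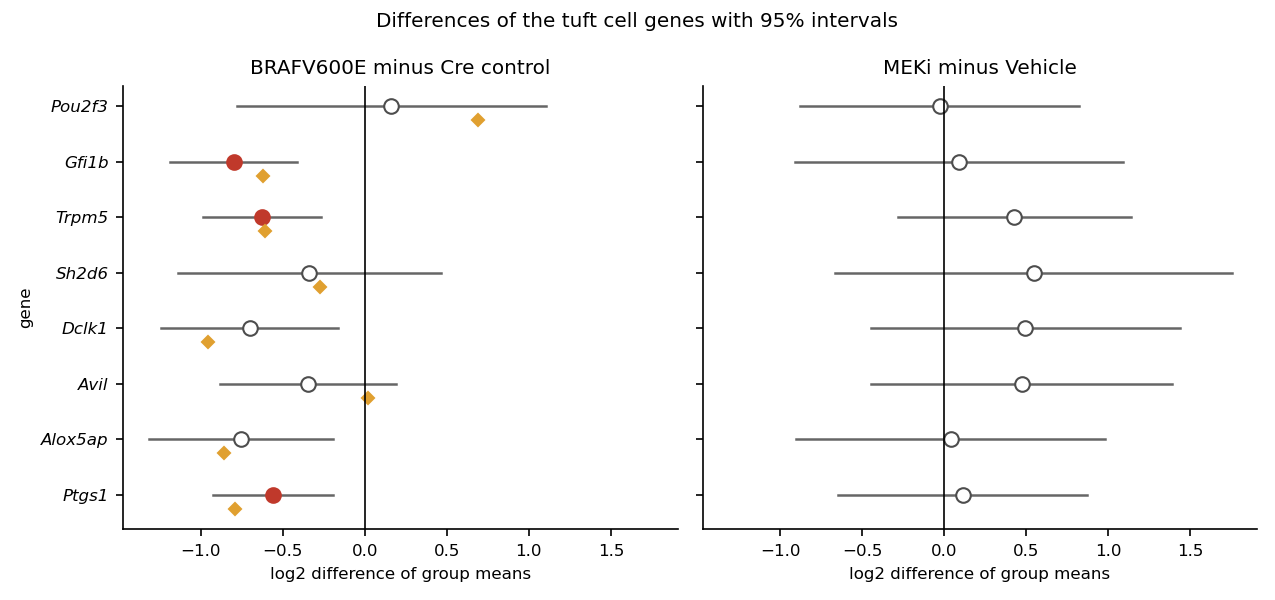
Difference of group means for each tuft cell gene (horizontal axis, log2 scale) in BRAFV600E against Cre control (left) and MEKi against Vehicle (right). Circles are the limma estimates with 95% intervals, filled red where the adjusted p was under 0.05 and open otherwise, and diamonds are the values from slide 1 alone (6 against 2 arrays). Gfi1b, Trpm5 and Ptgs1 are filled on the left and no gene is filled on the right.

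The second comparison asked what a MEK inhibitor did to the same genes. No gene of the 8 was called, against 1.95% of the 19270 genes tested, and none had an unadjusted p under 0.05, against 16.4% of all genes. The limma adjusted p-values lay between 0.566 and 0.979. The means of 7 genes were higher in MEKi, with a median difference of 0.27 beside 0.03 over all genes tested. Ranges overlapped for all 8 genes, whereas groups did not overlap, in either direction, for 12.2% of genes tested. The 2 comparisons share no arrays, but they lay on different slides.

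The 4 genes with the largest differences were Sh2d6, Dclk1, Avil and Trpm5. Trpm5 stood at −1.37, −1.01, −1.69 and −1.85 in MEKi and at −1.92, −1.09, −2.23 and −2.38 in Vehicle. All 4 MEKi arrays lay above the Vehicle mean, but Vehicle replicate 2 was higher than 3 of them, and the difference was 0.43 (SE 0.31, 95% interval −0.28 to 1.14, limma adjusted p = 0.566). Dclk1 stood at −2.59, −2.98, −2.61 and −2.83 in MEKi and at −2.28, −2.84, −4.42 and −3.44 in Vehicle. The MEKi arrays were close together inside a wide Vehicle range, set by Vehicle replicate 3, where the probe was not well above background. The difference was 0.49 (SE 0.41, 95% interval −0.45 to 1.44) and was not called. It was 0.10 without Vehicle replicate 3.

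Avil stood at −0.05, 0.76, −0.47 and −0.40 in MEKi and at −0.93, 0.53, −0.98 and −0.65 in Vehicle. Sh2d6 stood at −0.11, 0.99 and −0.79 in MEKi, where replicate 4 was flagged as an outlier spot and left out, and at −0.97, 0.49, −1.04 and −0.53 in Vehicle. Replicate 2 of each group was the highest of its group for Avil, Sh2d6 and Trpm5, and it was the lowest for Pou2f3. The differences were 0.47 for Avil (SE 0.40, limma adjusted p = 0.633) and 0.54 for Sh2d6 (SE 0.51, limma adjusted p = 0.681). Gfi1b stood at −2.20, −2.19, −2.88 and −2.42 in MEKi and at −2.88, −2.79, −3.24 and −1.14 in Vehicle. The high Vehicle replicate 4 decided its value: the difference was 0.09 (SE 0.43, limma adjusted p = 0.949) with that array and 0.55 without it.

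Ptgs1, Alox5ap and Pou2f3 differed by 0.11 (SE 0.33), 0.04 (SE 0.41) and −0.03 (SE 0.37). Their intervals ran from −0.65 to 0.87, from −0.90 to 0.98 and from −0.88 to 0.82, so differences of either sign lay within them. The second probes gave −0.20 for Ptgs1 (SE 0.14, adjusted p = 0.595), with all 4 MEKi arrays below the Vehicle mean, 0.14 for Alox5ap and −0.27 for Pou2f3. The second Sh2d6 probe, measured on all 4 MEKi arrays, differed by 0.04 (SE 0.27) and the second Avil probe by 0.69 (SE 0.51). The Dclk1 probes near chr3:55342815 and chr3:55266925 differed by 0.29 and −0.05, and none of these probes was called. With Y-linked expression as a covariate, added because the sexes of the 2 groups were unequal, the median of the 8 genes was 0.58. Again 0 genes were called. Y-linked levels were low on some Vehicle arrays and on no MEKi array. The covariate was therefore set almost wholly by the Vehicle arrays, and this median rests on few of them.

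Over all 4 groups, the mean of the 8 genes, each centred on its own mean over the 20 arrays, was 0.35 ± 0.18 (SD, n = 6) in Cre control, −0.04 ± 0.17 (n = 4) in MEKi, −0.14 ± 0.22 (n = 6) in BRAFV600E and −0.29 ± 0.39 (n = 4) in Vehicle. The ranges were 0.02 to 0.59, −0.20 to 0.12, −0.47 to 0.09 and −0.82 to 0.11 in the same order, and each overlapped every other. This order crosses slides and was not tested. Within groups the genes did not rise and fall as 1 unit. Over the 28 pairs, Pearson's r across the 20 arrays after group means were removed had a median of 0.05 and ran from −0.51, for Avil with Ptgs1, to 0.83, for Trpm5 with Avil. Dclk1 and Alox5ap made the next closest pair (r = 0.77). These values are descriptions over 4 groups of arrays that share slides and scaling.

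A wider list of 57 genes known from tuft cells was read in the same fits. In BRAFV600E 55 could be tested, 44 had a lower mean, 11 were called lower and 2 higher, with a median difference of −0.44. Of all 19076 genes tested there, 9872 had a lower mean, 6.53% were called lower and 6.39% higher. In MEKi 56 could be tested, 9 had a lower mean and 0 were called, with a median of 0.27. Of all 19270 genes tested there, 8784 had a lower mean and 1.95% were called. Within slide 1, 3 wider tuft genes were called lower and 1 higher with a median of −0.42, where 2.79% of all genes were called lower and 1.04% higher. Without the 3 Cre control arrays of low spike-in slope, 2 were called lower and 1 higher with a median of −0.37, where 1.21% and 1.13% of all genes were called.

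**Figure D3:**
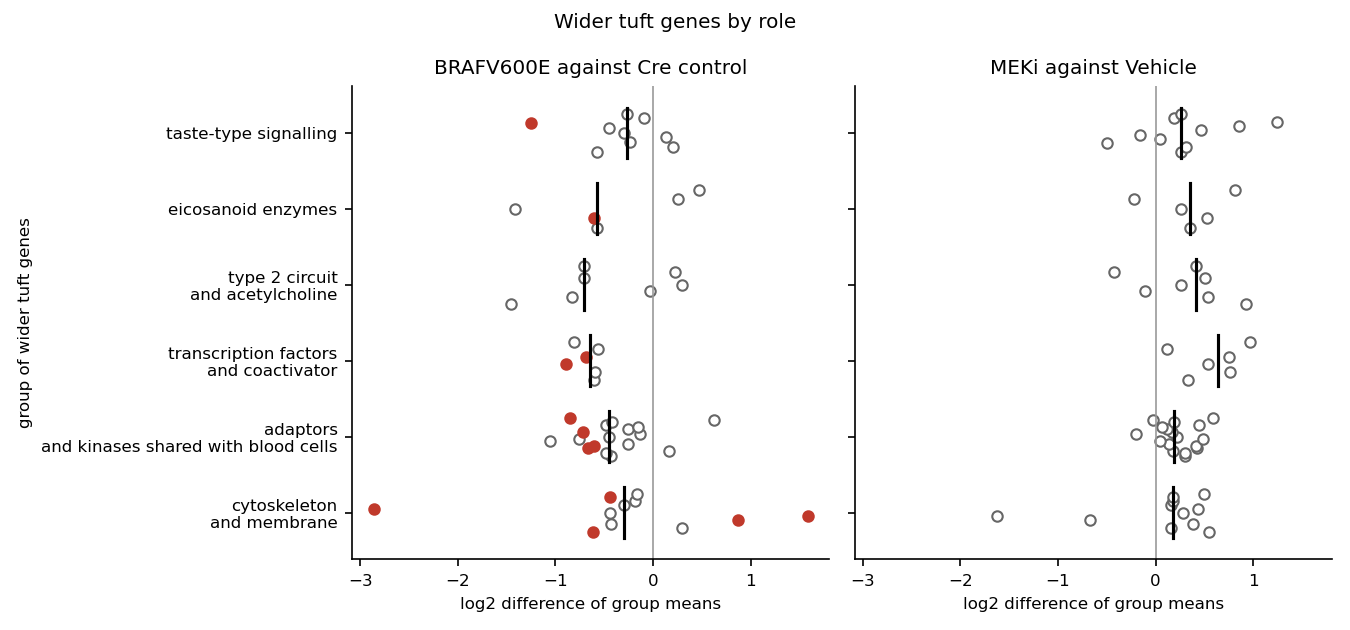
Difference of group means (horizontal axis, log2 scale) for the wider tuft genes, grouped by role (vertical axis). Each circle is 1 gene, filled red where the limma adjusted p was under 0.05, and vertical bars are the medians of each group of genes. Red points lie mostly left of 0 in the left panel, with Krt18 and Krt23 to the right of it, and the right panel has none.

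Among the 9 taste-type signalling genes tested in BRAFV600E, 7 had a lower mean, and the differences ran from −1.25 to 0.20. Only 1 of the 9 was called. This was Rgs13, a regulator that shortens G protein signals, with a mean of −1.43 ± 0.27 (SD, n = 6) in Cre control and −2.68 ± 0.45 (n = 6) in BRAFV600E. All 6 BRAFV600E arrays lay below every Cre control array, and the difference of −1.25 (SE 0.21, limma adjusted p = 0.00324) was larger than that of any of the 8 genes. Sucnr1, the succinate receptor, was well above background on 5 of 6 Cre control arrays and on 0 of 6 BRAFV600E arrays. It was therefore not tested. Its Cre control mean was 2.08-fold above the mean of the lowest signals above background on the BRAFV600E arrays. That mean, −5.17, is no firm bound, since a probe not well above background reached −4.50 on BRAFV600E replicate 5. The second messenger enzyme Plcg2 differed by −0.45 (limma adjusted p = 0.0693).

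Every one of the 6 transcriptional regulators had a lower mean in BRAFV600E, and 2 were called. Hmx3, a homeobox factor, differed by −0.90 (SE 0.23, limma adjusted p = 0.0246), and Sox4, which acts in epithelial progenitors as well, by −0.69 (SE 0.20, limma adjusted p = 0.0392). The list includes 1810046K07Rik, the mouse coactivator partner of Pou2f3, which differed by −0.60 (SE 0.42, limma adjusted p = 0.357). All 6 regulators had a higher mean in MEKi, with a median of 0.64, and 0 were called.

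Of the eicosanoid enzymes, Hpgds, the prostaglandin D synthase of blood cells and tuft cells, was called lower (−0.60, SE 0.15, limma adjusted p = 0.0246). Hpgds was well above background on 4 of 6 BRAFV600E arrays and 6 of 6 Cre control arrays, and the ranges overlapped. Alox5, the lipoxygenase that Alox5ap serves, differed by −0.57 (adjusted p = 0.0599) and Ltc4s, the leukotriene C4 synthase, by −1.41 (adjusted p = 0.0706). Of the 5 eicosanoid enzymes tested, 3 had a lower mean, and the differences ran from −1.41 to 0.47. None of the 7 genes of the type 2 circuit and acetylcholine group was called. Of these 7, 5 had a lower mean, and the differences ran from −1.45 to 0.30. Cd300lf, a lipid receptor, differed by −1.45 (SE 0.55, adjusted p = 0.0964), and Il25, which encodes the cytokine that tuft cells release, by −0.71 (SE 0.62, adjusted p = 0.473).

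Of the 17 adaptors and kinases that tuft cells share with blood cells, 15 had a lower mean in BRAFV600E and 4 were called lower. Their differences ran from −1.06 to 0.62, and 6.53% of all genes tested were called lower. Genes called lower included the exchange factor Vav1 (−0.85), the phosphoinositide kinase subunit Pik3r5 (−0.72) and the lipid phosphatase Inpp5d (−0.61). The limma adjusted p-values of these genes were 0.00781, 0.00518 and 0.0166. These 3 had groups that did not overlap, which in this direction held for 3.26% of all genes tested. Of the 11 cytoskeleton and membrane genes, 8 had a lower mean, 3 were called lower and 2 higher. The actin-binding Nebl differed by −2.86 (SE 0.65, limma adjusted p = 0.0154), the surface glycoprotein gene Cd24a by −0.62 (adjusted p = 0.0137) and Tmem176b by −0.44 (adjusted p = 0.0385). The other measurable Tmem176b probe went the opposite way. The keratin genes Krt18 and Krt23 were called higher, by 0.87 and 1.59 (adjusted p = 0.00298 and 0.0112), and Krt18 is made by all simple epithelia. In MEKi the largest differences of the wider list were −1.62 for Krt23 (SE 0.37, limma adjusted p = 0.0753), 1.24 for Sucnr1 (SE 0.71, adjusted p = 0.457) and 0.97 for the Ets factor Spib (SE 0.49, adjusted p = 0.390), and Krt18 differed by −0.68 (adjusted p = 0.0509).

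Markers of other cells were read beside the tuft genes, since some of the genes are shared with them. Of all genes tested in BRAFV600E, 6.53% were called lower and 6.39% higher. Of 8 T lymphoid markers tested, all had a lower mean in BRAFV600E and 4 were called (Cd3g, Cd8a, Lck and Cd7), with a median of −0.89. Leaving out single arrays gave 0 to 5 calls, with 0 when Cre control replicate 2 or BRAFV600E replicate 2 was left out and 1 or 2 for Cre control replicates 1, 3, 5 and 6 and BRAFV600E replicates 1 and 3, and there were 0 without the 3 Cre control arrays of low spike-in slope. Their mean level ran from −1.21 to 0.18 over the BRAFV600E arrays and from −0.41 to 0.71 over the Cre control arrays. Of 9 macrophage and neutrophil markers 3 were called lower (Lyz2, Csf1r and Cx3cr1) with a median of −0.65, and their mean level ran from 0.63 to 2.09 against 1.12 to 3.14. Lyz2 differed by −1.76 in BRAFV600E and by 0.71 in MEKi, beside −2.01 and 0.57 for the Paneth cell marker Lyz1. A part of Paneth cells in the Lyz2 signal was not tested. None of 7 mast cell markers tested was called (median −0.34, mean level of all 10 markers from −3.68 to −3.26 against −3.48 to −2.69), and Ms4a2 was above background on no array. Of 6 megakaryocyte and platelet markers, 2 passed the filter. Pf4 was called lower, by −0.85. Gp6 passed only through Cre control, with 0 BRAFV600E and 6 Cre control arrays above background. The Cre control mean of Gp6 was 1.35-fold above the mean of the lowest signals above background on the BRAFV600E arrays, which is no firm bound. The list's mean level ran from −5.43 to −5.04 against −5.41 to −4.26, and Ppbp and Gp1ba were above background on no array. The 4 erythroid markers tested had a median of −0.02 and 0 calls, 1 of 6 B lymphoid markers (Pax5) and 1 of 5 eosinophil markers (Ccr3) were called lower. The eosinophil call was present in 2 of 12 cases with single arrays left out, those without Cre control replicate 5 or BRAFV600E replicate 4, and B lymphoid calls numbered 2 without Cre control replicate 4 or BRAFV600E replicate 5. Of 10 neuron and glia markers, all with lower means, 3 were called (median −0.62, mean level from −2.06 to −1.59 against −1.45 to −1.04), and 5 without BRAFV600E replicate 1. The part of these cells in the differences of Gfi1b, Ptgs1, Alox5ap, Dclk1 and the shared adaptors was not tested.

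Other epithelial lists were read to place the tuft genes, again beside 6.53% of all genes called lower and 6.39% higher in BRAFV600E. In MEKi 1.95% of all genes were called in either direction. The pan-epithelial markers had a median of 0.16, with Cdh1 and Krt19 called higher and 0 of 7 called lower. Paneth cell markers had a median of −2.01 with 4 of 7 called lower, goblet cell markers −0.58 with 3 of 8 lower and 1 higher, enteroendocrine markers −0.28 with 3 of 10 lower, and stem cell markers −0.39 with 3 of 9 lower. The enterocyte markers had a median of −0.43 with 1 of 8 called in each direction. With single arrays left out the enteroendocrine median ran from −0.44, without Cre control replicate 1, to −0.17, without Cre control replicate 2, and it was −0.18 without Cre control replicate 5. The stem cell calls then numbered 1 to 3, with 1 when Cre control replicate 1, 3 or 6 or any BRAFV600E replicate except 3 was left out. The enterocyte call lower was absent without Cre control replicate 2, 3, 5 or 6 or BRAFV600E replicate 1, 4 or 6. The goblet call higher was absent without Cre control replicate 3 or 5 or BRAFV600E replicate 2, 3 or 6. The pan-epithelial median was 0.06 without Cre control replicate 4 and 0.10 without BRAFV600E replicate 5, and 1 of the Paneth markers was called without the 3 Cre control arrays of low spike-in slope. Against these, the 3 of 8 tuft genes called and their median of −0.59 were not set apart by any test. The MAPK output genes, which report signalling through MEK, were called higher in 8 of 10 cases in BRAFV600E (median 1.13) and lower in 5 of 10 in MEKi (median −1.60). In the second comparison the median of the Paneth markers was 0.79, of the goblet markers 0.64 and of the T lymphoid markers 0.79, with 0 calls in these 3 lists. The Paneth median fell to 0.38 without Vehicle replicate 2, and the MAPK output calls to 3 without Vehicle replicate 4. One mast cell marker, Kit, was called higher in MEKi (0.75), 0 of these markers were when any 1 array other than MEKi replicate 4 was left out, and the mast cell markers tested there had a median of 0.47.

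**Figure D4:**
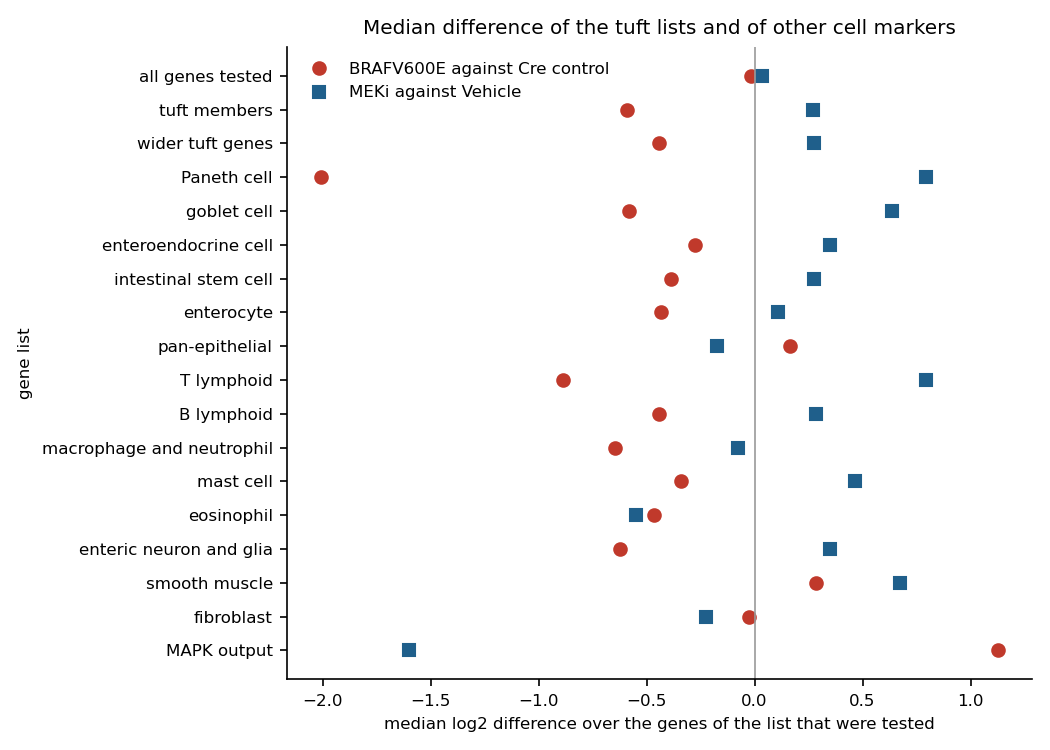
Median difference of group means (horizontal axis, log2 scale) over the tested genes of each list (vertical axis). Circles are BRAFV600E against Cre control and squares are MEKi against Vehicle. The 8 tuft genes stand at −0.59 and 0.27, all genes tested at −0.02 and 0.03, and the MAPK output genes at 1.13 and −1.60.

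The 18386 genes tested in both comparisons were ranked by Pearson's r with the mean of the 8 over the 20 arrays, after group means were removed. The mean was taken without scaling for spread, so the more variable of the 8 weighed more in it. The 8 genes themselves had a median r of 0.05 over their pairs, so the mean does not stand for a shared pattern. The 5 highest values, picked from all genes ranked and not tested, were Tmigd3 (r = 0.82), St18 (0.80), Wfdc10 (0.77), Eqtn (0.77) and F7 (0.76). Of these, Tmigd3 differed by −1.41 in BRAFV600E (limma adjusted p = 0.000623) and St18 by −0.98 (adjusted p = 0.00302), and the other 3 were not called. None of the 5 is on the wider list. The 55 wider tuft genes that could be ranked had a median r of 0.22, beside −0.02 over all genes ranked, and 2 were among the first 100.

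The stretch before the transcription start was read for the 6 genes that the promoter table held: Gfi1b, Ptgs1, Dclk1, with 2 starts, Sh2d6, Trpm5 and Avil (RefSeq, GRCm38.p6). The motif was the octamer ATGCAAAT, bound by POU-domain factors such as Pou2f3, sought on both strands in the 250 bases before each start. It was in 0 of these 7 stretches and in 1.60% of the 32851 stretches of this length in the table. Its first 7 letters, ATGCAAA, a shorter form chosen after the sequences had been seen and contained in every octamer match, were in 4.12% of all stretches and in 1 of the 7, that of Avil, which held them once on each strand. The stretches of the 3 genes called in BRAFV600E and that of Avil are printed 5′ to 3′ on the strand of the gene, with matches to the shorter form in capitals.

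Gfi1b, chr2:28621983-28622232, minus strand: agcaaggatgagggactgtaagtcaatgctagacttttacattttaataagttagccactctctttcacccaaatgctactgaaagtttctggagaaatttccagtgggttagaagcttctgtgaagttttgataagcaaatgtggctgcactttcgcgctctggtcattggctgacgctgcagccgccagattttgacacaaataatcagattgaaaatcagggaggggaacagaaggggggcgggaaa
Trpm5, chr7:143094643-143094892, minus strand: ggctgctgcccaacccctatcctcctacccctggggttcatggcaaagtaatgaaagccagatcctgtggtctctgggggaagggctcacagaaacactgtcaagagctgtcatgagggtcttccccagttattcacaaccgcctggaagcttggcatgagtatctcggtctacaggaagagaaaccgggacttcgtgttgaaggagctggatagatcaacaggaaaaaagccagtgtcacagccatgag
Ptgs1, chr2:36230176-36230425, plus strand: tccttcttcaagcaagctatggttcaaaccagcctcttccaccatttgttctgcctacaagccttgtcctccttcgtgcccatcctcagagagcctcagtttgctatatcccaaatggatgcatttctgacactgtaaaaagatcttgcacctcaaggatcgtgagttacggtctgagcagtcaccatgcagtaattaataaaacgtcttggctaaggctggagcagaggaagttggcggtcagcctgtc
Avil, chr10:127000459-127000708, plus strand: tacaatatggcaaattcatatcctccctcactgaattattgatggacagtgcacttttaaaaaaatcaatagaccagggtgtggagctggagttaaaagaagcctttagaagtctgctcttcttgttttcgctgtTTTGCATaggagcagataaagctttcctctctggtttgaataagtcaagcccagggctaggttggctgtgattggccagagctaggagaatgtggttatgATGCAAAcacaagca

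In Avil the matches began 115 bases before the start, on the opposite strand, and 15 bases before it, on the strand of the gene. Avil, whose stretch held both matches, was not called in either comparison, and the stretches of the 3 called genes held none. With so few stretches, and a form chosen after they had been seen, a link between matches and calls was not tested.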

How the data were processed

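Expression in mouse intestine was measured on 20 one-colour Agilent arrays. Per the file headers, the authors extracted each array with Feature Extraction 10.5.1.1, and the deposited processed intensity is background-subtracted, on a linear scale and not normalized between arrays. The authors' deposited value table held the same intensity. Groups came from the labels, whose treatment text fits none of them and was not used. Control and outlier-flagged spots were left out, log2 intensity minus the array's 75th percentile was taken, and 44432 of 56605 probes were named through accessions or symbols. The brightest probe stood for a gene, and genes well above background on at least 6 of 12 or 4 of 8 arrays were tested with limma 3.58.1 in R 4.3.3 without covariates, checked on simulated data. The authors' methods also used limma.

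The members, lists and tests were chosen with earlier results of these data known. Alternatives were other scaling, background correction, filters, probe choices, weights, slide and Y-linked terms, and left-out arrays. The text names all 8 genes, wider tuft genes that were called (1 is not reported here) and up to 3 more per comparison with the largest differences, called markers, and the 5 genes of most similar pattern. Genes that were named outside this rule, because their roles bear on the set, were Plcg2, Alox5, Ltc4s, Cd300lf, Il25 and 1810046K07Rik, chosen after their values were seen. Exons and protein sequences were not used here.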

Additional observations from a re-analysis of the deposited data

Results flagged for a closer look

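Within each group of 4 to 6 values, arrays whose gap to the nearest other array took up most of the range of the group were sought over the 8 tuft genes. Of 31 groups of values, 4 held such an array, where chance gives about 1 in 20. Pou2f3 on BRAFV600E replicate 4 stood at −4.77, with the next array at −3.24. Gfi1b on Cre control replicate 4 stood at −2.28, with the next at −1.80, and on BRAFV600E replicate 6 at −3.20, with the next at −2.60. Sh2d6 on Cre control replicate 6 stood at −2.16, with the next at −0.38.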

How the results depend on the processing

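No paired analysis was possible because the labels carry no replicate numbers, and numbers given in accession order pair no samples; there was no replicate block. The 8 arrays of slide 1 were the only ones on which Cre control and BRAFV600E lay together, so slide 2 and BRAFV600E cannot be told apart for 4 arrays. The number of arrays limits the precision, and Sucnr1, at background in 1 group, was not tested and has no firm bound.

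In BRAFV600E against Cre control 2465 genes were called. The count was 9345 without scaling (1.88% of them lower, against 50.5%), 4839 with normexp background correction (67.0% lower), 3860 with array weights, 1570 with slide as a block (68.2% lower), 731 within slide 1 (72.9% lower), 30 with only the arrays whose spike-in slope was in range, and 445 without Cre control replicates 2, 3 and 5, an alternative chosen after seeing the data. Leaving out single arrays gave 1472 to 2953. The cause of these shifts was not tested, except that the last 3 settings use fewer arrays. Of the 8 tuft genes 3 were called lower, and 0 were with no scaling, with slide as a block, within slide 1, with spike-in slopes in range and without Cre control replicates 2, 3 and 5. Leaving out single arrays gave 1 to 3, with 1 when Cre control replicate 2 or 5 or BRAFV600E replicate 1 or 4 was left out. Their median was −0.59, turned to 0.22 without scaling and ran from −0.67 to −0.53 with single arrays left out. Normexp correction moved the median of all genes by −0.12, to −0.14.

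Without scaling, single genes turned to 0.011 (Gfi1b), 0.19 (Trpm5), 0.47 (Sh2d6), 0.11 (Dclk1), 0.47 (Avil), 0.056 (Alox5ap), 0.25 (Ptgs1), 0.21 (Hpgds), 0.12 (Sox4), 0.093 (Pik3r5), 0.20 (Inpp5d), 0.19 (Cd24a) and 0.37 (Tmem176b), against a median of all genes of 0.79. Pou2f3 turned to −0.26 with normexp correction, −0.12 with the mean of its probes and −0.19 with array weights, and ran from −0.072 to 0.48 with single arrays left out. Avil turned to 0.020 with slide as a block and within slide 1 and to 0.011 with spike-in slopes in range. Sh2d6 turned to 0.24 with slopes in range and 0.17 without Cre control replicates 2, 3 and 5.

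In MEKi against Vehicle 375 genes were called, with 73 without scaling, 235 without the filter on dim probes, 1211 with array weights and 52 with the Y-linked covariate. Leaving out single arrays gave 76 to 370. None of the 8 tuft genes was called under any of the 19 alternatives. Their median of 0.27 moved to 0.58 with the Y-linked covariate, 0.092 with the mean of a gene's probes, 0.12 with normexp correction and 0.11 with genes above background on every array, and ran from 0.11 to 0.47 with single arrays left out. Gfi1b turned to −0.093 with normexp correction, Ptgs1 to −0.044 with the mean of its probes and −0.036 with the Y-linked covariate, and with array weights Pou2f3 turned to 0.11 and Alox5ap to −0.10. With single arrays left out, Pou2f3 ran from −0.25 to 0.29, Gfi1b from −0.15 to 0.55, Alox5ap from −0.26 to 0.32 and Ptgs1 from −0.076 to 0.44.

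The wider tuft genes called lower in BRAFV600E numbered 11, and 20 with normexp correction, 18 with array weights, 7 without Cre control replicate 2 and 0 with spike-in slopes in range. In MEKi at most 2 were called in either direction.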

Other observations

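Markers of the cells that answer tuft cells were also read. Of the group 2 innate lymphoid and type 2 response genes, 8 could be tested in BRAFV600E against Cre control, 0 were called, and their median difference was −0.14. In MEKi against Vehicle the 8 tested had a median of 0.10 with 0 called. Il5, the cytokine that calls in eosinophils, was above background on no array. In the tissue under the epithelium, 2 of 7 smooth muscle markers (Actg2 and Des) were called higher in BRAFV600E, beside 6.39% of all genes tested. The other measurable Des probe went the opposite way. The median of the 7 was 0.28 and ran from 0.18 to 0.45 with single arrays left out. Only 1 was called when Cre control replicate 2, 3 or 5 or BRAFV600E replicate 1, 3 or 6 was left out. Of the fibroblast markers, 0 of 6 were called, with a median of −0.02.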
